A study of Homo sapiens with 4 samples.

Results

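The S100 genes encode small calcium-binding proteins, and 10 of them were followed here by their symbols among the 16811 genes of the expression table: *S100A2*, *S100A4*, *S100A6*, *S100A7*, *S100A8*, *S100A9*, *S100A10*, *S100A11*, *S100A14* and *S100A16*. The question was how *S100A4* compared with the epithelial and inflammatory S100 genes of the same chromosome 1q21 cluster after deletion of the p2 promoter of *C1orf132*. RNA was sequenced from MCF12A, a non-tumorigenic human mammary epithelial line that a label of the series names as breast cancer, in 2 libraries of edited cells (genotype C1orf132 KO, made by CRISPR/Cas9 deletion of p2) and 2 of wild-type cells. Both groups were grown in the same medium with horse serum, EGF, hydrocortisone, cholera toxin and insulin, and no other treatment was given. Edited colonies were grown from sorted single cells, and the labels do not say which colony or colonies were sequenced. Expression of *C1orf132* was not analysed here, and the libraries were grouped by their labels alone.

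S100 proteins carry a pair of EF-hand motifs, mostly work as dimers, and expose a binding surface for partner proteins when calcium rises. Many of their genes lie side by side in the epidermal region of 1q21. In stratified and mammary epithelia some mark the basal or differentiated state, some are induced in inflammation and secreted, and some are present in most cell types. *S100A4*, also known as metastasin or fibroblast-specific protein, binds non-muscle myosin and is known for its part in cell motility.

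In edited cells *S100A4* rose, *S100A7*, *S100A8*, *S100A9* and *S100A14* fell, and the other 5 S100 genes did not pass the test. All 10 genes passed the filter on low values, a mean of at least 10 over the 4 libraries. Differences were tested with limma on log2(value + 1), with p-values adjusted over all 9590 genes that passed the filter and a threshold of 0.05. By this rule 5 of the 10 S100 genes were called, 1 higher and 4 lower, where 7.09% of all tested genes were called, 2.89% higher and 4.2% lower. The 10 genes were chosen with earlier results of these data known, so their share called is not a test of the family. The median log2 fold change, edited minus wild-type, was −0.68 over the 10 genes and 0.09 over all tested genes. The edited and wild-type libraries did not overlap for 9 of the 10 genes, a state that 65.1% of tested genes shared, so the absence of overlap alone says little with 2 libraries a group. With RNA from whole cultures, fewer cells of a type and less RNA per cell cannot be told apart. The replicates are given as biological, and the p-values measure only the spread between these 4 samples.

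**Figure D1:**
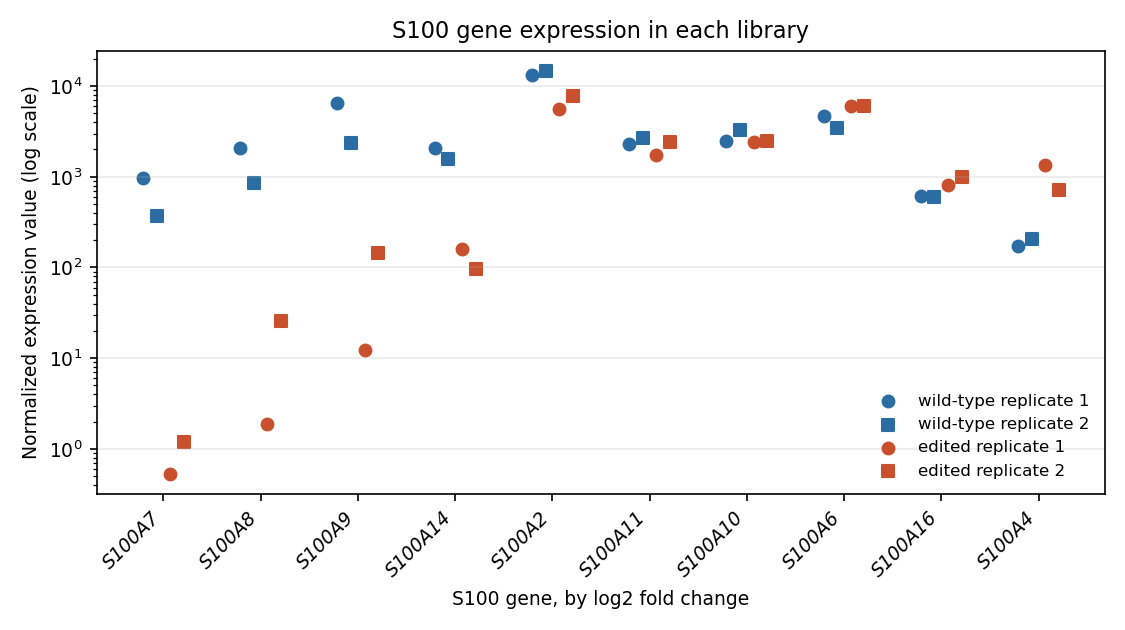
Normalized expression value (log scale) of each of the 10 S100 genes, ordered by log2 fold change, with 1 point per library (blue wild-type, orange edited; circles replicate 1, squares replicate 2). *S100A7*, *S100A8*, *S100A9* and *S100A14* lie lower in both edited libraries, *S100A4* lies higher, and *S100A11* is the gene whose groups overlap.

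*S100A4* had normalized values of 171 and 204.5 in the wild-type libraries and 1350 and 706 in the edited libraries. Both edited values lay above both wild-type values, and the edited libraries differed from each other by 1.91 times. The group means were 188 ± 24.0 (SD, n = 2) and 1028 ± 456 (SD, n = 2), a ratio of 5.48. The log2 fold change was 2.38 (SE 0.35, 95% interval 1.51 to 3.25, limma adjusted p = 0.0253), the 26th largest increase among the 9590 tested genes. By level, *S100A4* stood 1118th among all genes in wild-type cells and 216th in edited cells. Leaving out either wild-type library ended the call, with log2 fold changes of 2.25 and 2.51 and an adjusted p as high as 0.144.

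The inflammatory genes *S100A7*, *S100A8* and *S100A9* all fell, with a median log2 fold change of −7.24. *S100A7* encodes psoriasin, an antimicrobial protein of stressed epithelium. Its values were 970 and 366 in the wild-type libraries and 0.534 and 1.19 in the edited libraries, so that wild-type cells had it at a substantial level and edited cells near the detection limit. The log2 fold change of −8.35 (SE 0.47, 95% interval −9.52 to −7.17, adjusted p = 0.00285) was the largest decrease of all tested genes. On the linear scale the wild-type mean was 774 times the edited mean. That ratio rests on an estimated 7 reads in both edited libraries together, which gives it a counting interval of 375.9 to 1926. Its log2 fold change depended on the pseudocount, −9.36 with 0.1 and −6.68 with 5, and the call held in all 14 settings examined at the 0.05 threshold, though not at an adjusted p under 0.001.

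*S100A8* and *S100A9* encode the subunits of calprotectin, which binds zinc and manganese and is secreted in inflammation. *S100A8* had values of 2063 and 853 in the wild-type libraries and 1.88 and 25.8 in the edited libraries. *S100A9* had values of 6494 and 2350 in the wild-type libraries and 12.3 and 143 in the edited libraries. For both genes every edited value lay below every wild-type value, edited replicate 1 was the lowest library and wild-type replicate 1 the highest. The log2 fold change was −7.24 for *S100A8* (SE 1.05, 95% interval −9.84 to −4.64, adjusted p = 0.0251) and −6.48 for *S100A9* (SE 1.13, 95% interval −9.29 to −3.67, adjusted p = 0.0379). These were the third and the ninth largest decreases of all tested genes.

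The pair also differed between replicates by more than most genes. The edited libraries differed 13.7-fold for *S100A8* and 11.6-fold for *S100A9*, and only 0.355% and 0.302% of tested genes showed a larger gap between the edited libraries. With edited replicate 1 left out the log2 fold change of *S100A8* was −5.63, and with edited replicate 2 left out it was −8.85. The corresponding values for *S100A9* were −4.76 and −8.20. Without wild-type replicate 1 or 2 neither gene passed the threshold, with log2 fold changes of −6.60 and −7.88 for *S100A8* (adjusted p up to 0.138) and −5.75 and −7.21 for *S100A9* (adjusted p up to 0.170). A fit with a library left out has 1 library in that group, which is assumed to vary like the other group. The ratio of *S100A9* to *S100A8* was 3.15 and 2.76 in the wild-type libraries and 6.53 and 5.54 in the edited libraries. It was higher in both edited libraries than in either wild-type library. In edited replicate 1 an estimated 7 reads fell on *S100A8* and 61 on *S100A9*, so the ratio of 6.53 and the 13.7-fold gap are uncertain. The log2 fold change of *S100A8* was −7.53 with a pseudocount of 0.1 and −6.52 with 5.

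The genes grouped here as epithelial, *S100A2*, *S100A14* and *S100A16*, did not move together. Edited values were lower for *S100A2* and *S100A14* and higher for *S100A16*, whose place in this group was not tested. *S100A14*, expressed mainly in epithelia, had values of 2080 and 1580 in the wild-type libraries and 160.5 and 96.7 in the edited libraries. The edited values lay far below, at means of 1830 ± 353 and 129 ± 45.1 (SD, n = 2 each), 14.2 times apart. Log2 expression of *S100A14* fell by 3.85 (SE 0.31, 95% interval −4.63 to −3.07, adjusted p = 0.00660). Leaving out either wild-type library ended this call too, with log2 fold changes of −3.65 and −4.05 and an adjusted p as high as 0.0833.

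*S100A2*, a gene of basal epithelial cells and a known target of p53 family proteins, was the most abundant of the 10 in wild-type cells, with values of 13380 and 14704 there and 5611 and 7775 in the edited libraries. The groups did not overlap, and the wild-type mean was 2.10 times the edited mean. The log2 fold change of −1.09 (SE 0.23, 95% interval −1.66 to −0.51) had an adjusted p of 0.0521, just outside the threshold, while *S100A9* at 0.0379 was the closest of the 10 inside it. *S100A2* passed in 5 of these 14 settings, among them equal library totals (adjusted p = 0.0346) and quantile normalization (adjusted p = 0.0237).

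*S100A16*, a close neighbour of *S100A14*, had values of 606 and 598.5 in the wild-type libraries and 819 and 1003 in the edited libraries. Its log2 fold change was 0.59 (SE 0.21, adjusted p = 0.130), and it was 0.31 after quantile normalization. The ratio of *S100A14* to *S100A16* was 3.43 and 2.64 in wild-type and 0.196 and 0.0964 in edited libraries, so *S100A14* was the more abundant of the pair in wild-type cells and the less abundant in edited cells.

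None of the 3 broadly expressed genes passed the limma test, and at an unadjusted p under 0.05 *S100A6* alone did. That level was reached by 3095 of all 9590 tested genes. *S100A6*, or calcyclin, had values of 4659 and 3432 in the wild-type libraries and 6033 and 5973 in the edited libraries. Its edited values lay above the wild-type values, with a log2 fold change of 0.59 (95% interval 0.017 to 1.16, adjusted p = 0.1475). *S100A10*, the calcium-insensitive partner of annexin A2, had values of 2506 and 3253 in the wild-type and 2422 and 2467 in the edited libraries, a log2 fold change of −0.22 (95% interval −0.78 to 0.33, adjusted p = 0.517). *S100A11*, a partner of annexin A1, had values of 2277 and 2665 in the wild-type and 1726 and 2433 in the edited libraries, a log2 fold change of −0.27 (95% interval −0.89 to 0.36, adjusted p = 0.499). The intervals of both include a change of zero and do not show that the genes were alike in the 2 groups.

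*S100A4* was set against each of the other 9 genes as a log2 ratio on value + 1 within each library. For values far above 1 this takes out a scaling common to the library. For *S100A7* in the edited libraries, with values near 1, it does so only in part, and the added 1 lowers the ratio. For all 9 the ratios of the edited and wild-type libraries did not overlap. All 9 ratios share *S100A4*, whose own values did not overlap between the groups, so they are not 9 separate results. The difference in log2 ratio, edited minus wild-type, ranged from 1.79 (*S100A16* and *S100A6*) to 10.73 (*S100A7*), with a median of 3.47. With 2 libraries a group the smallest p an exact two-sided permutation test allows is 0.333, so no test of these ratios is given.

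**Figure D2:**
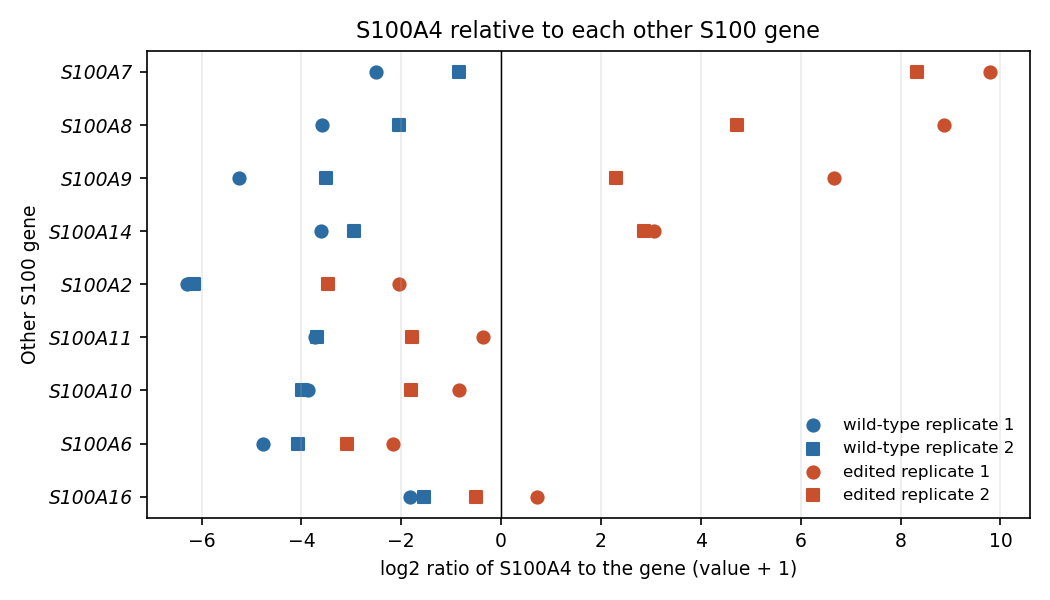
The log2 ratio of *S100A4* to each of the other 9 S100 genes (horizontal axis, value + 1), with 1 point per library (blue wild-type, orange edited). For every gene both edited points lie to the right of both wild-type points, and the group means differ by 1.79 at the least and 10.73 at the most. All 9 rows share *S100A4* and are not separate results.

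On the linear scale *S100A4* was 0.176 and 0.559 times *S100A7* in the wild-type libraries and 2529 and 593 times *S100A7* in the edited libraries. It was 0.0827 and 0.240 times *S100A8* in the wild-type libraries and 718 and 27.4 times in the edited libraries. Against *S100A9* it was 0.0263 and 0.0870 times in the wild-type libraries and 109.9 and 4.94 times in the edited libraries. *S100A4* was thus below all 3 inflammatory genes in each wild-type library and above all 3 in each edited library. It stayed below *S100A2* in all 4 libraries, at 0.0128 and 0.0139 times in wild-type and 0.241 and 0.0908 times in edited cells. Low values of genes with 1 transcript fell on steps that shrink with transcript length, so the values are read here as levels per length.

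The 10 genes together made up 2.20% and 2.08% of the summed signal in the wild-type libraries and 1.10% and 1.25% in the edited libraries. The inflammatory genes were 27.1% and 11.9% of the S100 signal in wild-type cells and 0.0810% and 0.824% in edited cells. The broadly expressed genes were 26.8% and 31.2% in wild-type cells and 56.1% and 52.7% in edited cells. *S100A4* went from 0.485% and 0.682% of the S100 signal to 7.45% and 3.42%. *S100A2* kept a large part in every library, 38% and 49% in wild-type and 30.9% and 37.7% in edited cells. Since shares of one sum depend on each other, a larger share of one gene is in part the smaller share of another.

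**Figure D3:**
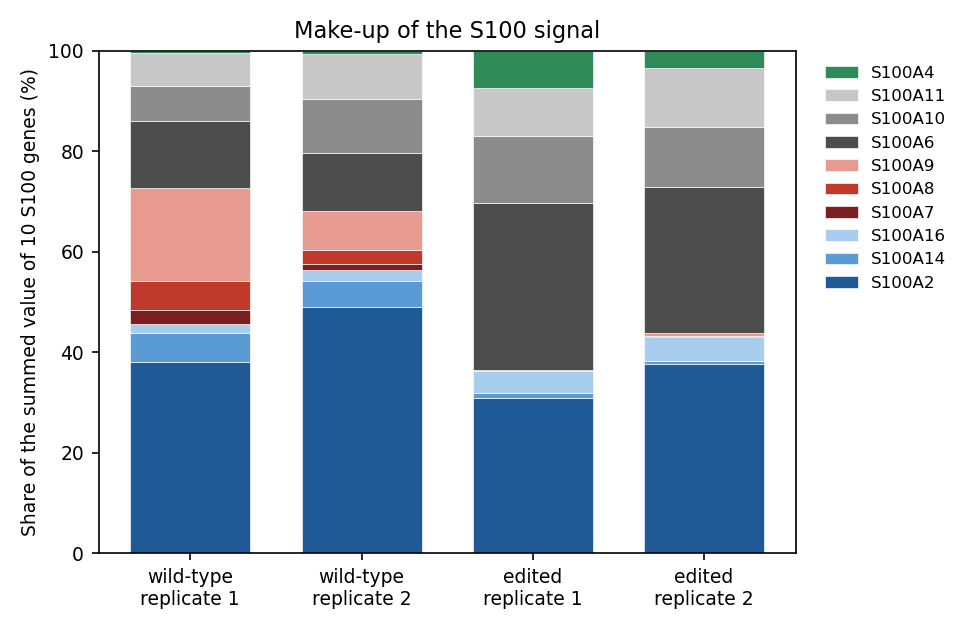
Share (%) of the summed value of the 10 S100 genes taken by each gene, 1 stacked bar per library (blues *S100A2*, *S100A14* and *S100A16*, grouped here as epithelial, reds inflammatory, greys broadly expressed, green *S100A4*). The inflammatory part is 27.1% and 11.9% in the wild-type libraries and below 1% in the edited libraries.

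By RefSeq on GRCh38.p14 the 1q21 cluster runs from *S100A10* to *S100A1* over 1651 kb and lists 16 S100 genes, 14 of them between *S100A9* and *S100A1* within 276.5 kb. *S100A4* lies at chr1:153543621-153545806 on the minus strand, 7629 bases from *S100A6* on one side and 1522 bases from *S100A3* on the other. The listed span of *S100A5*, which was not analysed here, overlaps its 3′ end on the same strand, so reads of that overlap could belong to either gene. *S100A9* (chr1:153357854-153361023, plus strand), *S100A8* (chr1:153390032-153422583, minus strand) and *S100A7* (chr1:153457744-153460651, minus strand) lie at one end of this stretch. The listed span of *S100A8* overlaps that of *S100A7A* (chr1:153416520-153423222) on the opposite strand. The listed starts of *S100A8* lie between 153390976 and 153391188, so the far end of its span was not searched as a start. *S100A2* (chr1:153561108-153565844), *S100A16* (chr1:153606883-153613137) and *S100A14* (chr1:153614255-153616325), all on the minus strand, lie beyond *S100A3*. *S100A16* and *S100A14* are 1117 bases apart, and only the latter passed the test.

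Of 11 other S100 genes listed, 6 were in the table and 3 passed the filter. *S100A3*, the measured S100 gene nearest to *S100A4*, had values of 52.5 and 62.7 in wild-type and 25.6 and 32.04 in edited libraries, with a log2 fold change of −0.98 (SE 0.20, adjusted p = 0.0483). It thus fell while *S100A4* rose, though the call of *S100A3* was lost in several settings, with adjusted p up to 0.241. The ratio of *S100A3* to *S100A2*, the next gene along, was 0.00393 and 0.00426 in wild-type and 0.00456 and 0.00412 in edited libraries, which overlap. *S100A13* (478 and 325 in wild-type, 303 and 454 in edited libraries, adjusted p = 0.866) and *S100P* on chromosome 4 (367 and 62.5 in wild-type, 271 and 366 in edited libraries, adjusted p = 0.394) did not pass.

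The other 3 lay under the filter and were tested with all 16811 genes, of which 4.73% were called. *S100A12*, which encodes calgranulin C, had values of 10.97 and 5.43 in wild-type and 0.454 and 0.607 in edited libraries (log2 fold change −2.52, adjusted p = 0.0347). *S100A7A*, a paralog of *S100A7*, had values of 8.96 and 12.6 in wild-type libraries and was listed at 0 in both edited libraries (adjusted p = 0.0104). How reads that match both *S100A7* and *S100A7A* were assigned is not given in the sources used here, and the transcripts were not compared, so the split between the paralogs is uncertain. *S100A1* had values of 3.08 and 4.10 in wild-type and 4.65 and 3.86 in edited libraries (adjusted p = 0.636). In chromosomal order *S100A9*, *S100A12*, *S100A8*, *S100A7A* and *S100A7* are consecutive among the genes measured, and all 5 fell. The 7 fused-type S100 genes listed were not analysed here.

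**Figure D4:**
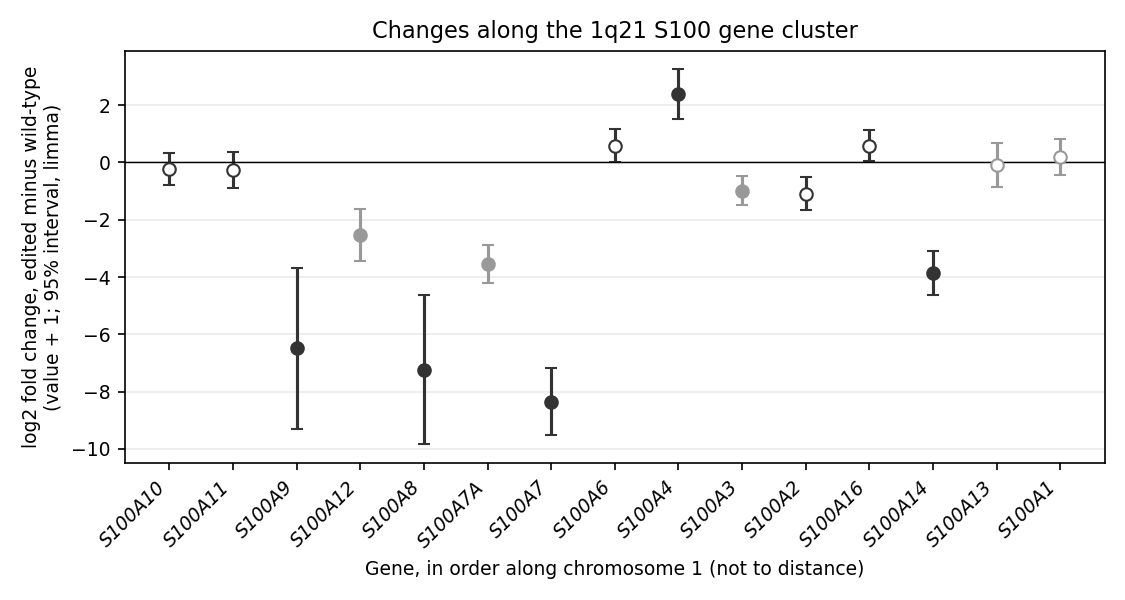
The log2 fold change, edited minus wild-type, with its 95% interval from limma, of the measured S100 genes in their order along chromosome 1 (distance not to scale; black the 10 genes followed, grey the others; filled points have an adjusted p under 0.05). Points from *S100A9* to *S100A7* lie far below zero, *S100A4* lies above, and *S100A3*, the next gene measured, lies below.

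The sequences just before the listed starts are shown for 4 of the genes that passed, because a TATAA box, the letters bound by the TATA-binding protein, was found before a start of each of the 5 called among the 10 genes. The 60 bases before the start, read 5′ to 3′ on the gene's own strand from RefSeq on GRCh38.p14, carry TATAA in capitals. They lie at chr1:153545807-153545866 (minus) for *S100A4*, chr1:153460652-153460711 (minus) for *S100A7*, chr1:153357794-153357853 (plus) for *S100A9* and chr1:153616326-153616385 (minus) for *S100A14*.
S100A4: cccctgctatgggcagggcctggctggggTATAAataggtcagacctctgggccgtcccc
S100A7: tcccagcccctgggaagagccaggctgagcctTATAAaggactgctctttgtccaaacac
S100A9: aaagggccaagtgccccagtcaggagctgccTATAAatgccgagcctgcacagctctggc
S100A14: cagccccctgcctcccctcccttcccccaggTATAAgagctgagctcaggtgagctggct

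TATAA was searched on the gene's strand within 60 bases before each start. It was found for 6 of the 10 genes, *S100A6* and the 5 called genes (for *S100A8* at 1 of its 3 listed starts), 28 to 31 bases before the start. By start, TATAA was held by 6 of the 14 listed starts of the 10 genes and by 2.95% of all listed starts of tested genes. It was not found for *S100A2*, *S100A10*, *S100A11* or *S100A16*. Among the other S100 genes called, *S100A7A* (28 bases before the start) and *S100A12* (8 bases) had it, and *S100A3* lacked it. Of those not called, *S100P* and *S100A13* (at 1 of its 3 listed starts) had it, as did *S100A6* above, and *S100A1* lacked it. The relation of the element to the calls was not tested. The letters CACCTG, searched on both strands over 250 bases, were found for 7 of the 10 genes and in 15.5% of the starts of tested genes, and TGANTCA for 1 of the 10, *S100A2*, and in 4.22%. A gene was counted if any of its listed starts matched, while the percentages count starts, so the units differ. CpG dinucleotides in the same 250 bases numbered 7 for *S100A4*, 1 for *S100A7*, 2 for *S100A8* and 4 for *S100A9* and *S100A14*. Among the genes that did not pass they numbered 4 and 3 at the starts of *S100A2*, 1 and 6 at those of *S100A16*, 15 for *S100A11* and 24 for *S100A6* and *S100A10*. The median over the starts of tested genes was 21. These matches describe the letters only, and no binding or methylation was measured.

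Binding partners of S100 proteins were followed as a list of 16 genes, all tested. Of these 1 rose and none fell, 6.25% called, where 7.09% of all tested genes were called. The median log2 fold change of the list was 0.14. *ANXA6*, an annexin, had values of 47.5 and 67.6 in wild-type and 280.4 and 306 in edited libraries, with a log2 fold change of 2.35 (SE 0.24, adjusted p = 0.0110). *ANXA2*, whose product pairs with that of *S100A10*, had values of 4620 and 4954 in wild-type and 5876 and 7739 in edited libraries (adjusted p = 0.189). The ratio of *S100A10* to *ANXA2* was 0.543 and 0.657 in wild-type and 0.412 and 0.319 in edited libraries. *CACYBP*, the calcyclin-binding protein, had a log2 fold change of 1.09 (adjusted p = 0.0727), and the ratio of *S100A6* to it was 16.8 and 15.97 in wild-type and 9.48 and 14.0 in edited libraries. The ratio of *S100A11* to *ANXA1* overlapped between the groups, at 2.56 and 4.68 in wild-type and 2.91 and 3.84 in edited libraries.

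Of 4 receptors for secreted S100 proteins, 2 were tested and 0 passed by limma, where 7.09% of all tested genes were called. An unadjusted p under 0.05 was reached by 3095 of all 9590 tested genes and by 1 of these 2 receptors. That gene, *ALCAM*, had a log2 fold change of −0.94 (adjusted p = 0.0541), and *BSG* had 0.28 (adjusted p = 0.380). *AGER*, the receptor RAGE, was under the filter (log2 fold change −0.82, adjusted p = 0.206 in the test without it). Among 20 other tested EF-hand genes 1 fell and none rose, 5% called, where 7.09% of all tested genes were called. Their median log2 fold change was 0.18. The gene that fell was *CAPN1*, a calpain, with values of 946 and 917 in wild-type and 467 and 474 in edited libraries (log2 fold change −0.98, SE 0.20, adjusted p = 0.0468). Among 22 tested housekeeping genes of the 1q21 region 0 passed by limma, where 7.09% of all tested genes were called. Of the 22, 1 had an unadjusted p under 0.05, beside the 3095 of 9590 over all tested genes. Their log2 fold changes lay between −0.42 and 0.58. Over 878 tested genes of chromosome 1 outside the S100 family 7.86% were called.

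**Figure D5:**
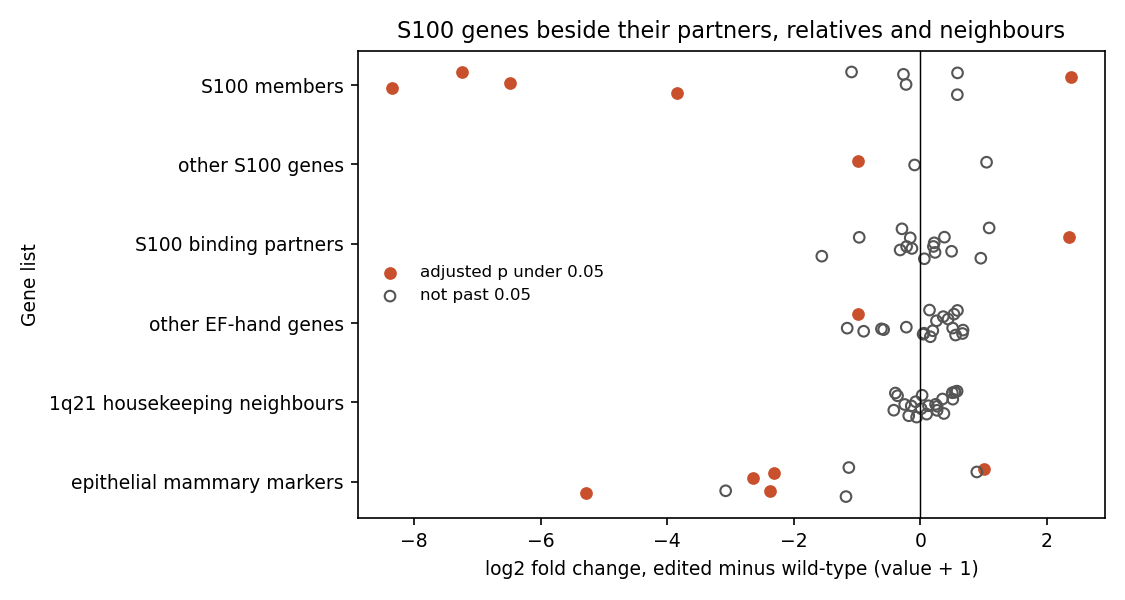
The log2 fold change, edited minus wild-type (horizontal axis, value + 1), of each tested gene of 6 gene lists, 1 row per list (filled points have an adjusted p under 0.05; vertical position within a row is arbitrary). The 10 S100 genes spread from −8.35 to 2.38, and the 22 genes of 1q21 from −0.42 to 0.58.

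Markers of cell types moved beside the S100 genes. Of 9 mammary epithelial markers 1 rose and 4 fell, where 2.89% of all tested genes were called higher and 4.2% lower. The summed value of the 9 was 12215 and 22291 in wild-type and 5336 and 6952 in edited libraries. *CDH1*, which encodes E-cadherin, fell most of the 9 (log2 fold change −5.28, limma adjusted p = 0.00328). The others that fell past the threshold were *EPCAM* (−2.31, adjusted p = 0.0411), *TP63* of basal cells (−2.65, adjusted p = 0.0284) and *KRT17* (−2.37, adjusted p = 0.0491). *KRT8* of luminal cells rose (1.01, adjusted p = 0.0450). *KRT14* did not pass by limma (log2 fold change −3.08, adjusted p = 0.0513), nor did *KRT5* (−1.17, adjusted p = 0.146). *KRT6A* (−1.13, adjusted p = 0.205) and *KRT18* (0.89, adjusted p = 0.305) also did not pass. The basal keratin *KRT5* was present in all 4 libraries, at 4590 and 11914 in wild-type and 3514 and 3056 in edited libraries.

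Of 8 fibroblast markers 3 were in the table, with a summed value of 280.5 and 223 in wild-type and 842.6 and 1325 in edited libraries. *VIM*, which encodes vimentin, rose from 258 and 194 to 824 and 1215 (log2 fold change 2.16, adjusted p = 0.0211). *COL1A1* of fibroblasts fell, from 15.6 and 28.1 to 3.19 and 5.58 (log2 fold change −2.06, adjusted p = 0.0420), and *DCN* had values of 7.42 and 1.09 in wild-type and 15.1 and 105 in edited libraries (adjusted p = 0.0974).

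*S100A8* and *S100A9* are abundant in neutrophils and monocytes, so leukocyte markers were examined. Of 8 such markers 3 were in the table, with a summed value of 71.2 and 88.8 in wild-type and 42.0 and 60.1 in edited libraries. *ITGAM* fell, from 16.3 and 41.7 to 0.309 and 1.66 (log2 fold change −3.87, adjusted p = 0.0264), and *CD14* (adjusted p = 0.422) and *CD68* (adjusted p = 0.898) did not pass. The other 5 leukocyte markers, among them *PTPRC* and *LYZ*, and the 4 endothelial markers listed were not analysed here. The part of these marker changes in the S100 results was not tested.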

How the data were processed

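RNA of edited and wild-type MCF12A cells, 2 libraries each, was prepared with poly(A) selection and sequenced as single reads of 75 bases. The authors deposited 1 table of normalized signal per gene and library. Its normalization is not given in the sources used here, and the submitters' processing notes name HISAT2, Salmon and hg38 without roles or versions. No column was without a sample (0). Values were compared as deposited with limma 3.58.1 (R 4.3.3) on log2(value + 1), with a trend in the variance, a mean of at least 10 and Benjamini-Hochberg adjustment over all genes tested. The script was tested on simulated data. Other scalings, pseudocounts, filters, a replicate block and the leaving out of each library were tried.

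Library totals were 1444644 to 1655437. From 861 genes with 1 listed transcript, 1 read on 1 kb was worth 0.103 to 0.123, and read numbers are estimates that could be up to 2 times higher. Counting intervals (95%, exact Poisson) cover counting error only.

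The S100 genes and gene lists were chosen with earlier results of these data known. The text names every S100 gene measured and the genes of other lists past the threshold. Members of marker and partner lists that carry a check are also named. Gene positions, starts and sequences are from RefSeq on GRCh38.p14, the assembly that hg38 denotes.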

Additional observations from a re-analysis of the deposited data

How the results depend on the processing

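No S100 gene of the 10 changed direction in any of the settings tried. *S100A7* passed in all 14 settings with the 0.05 threshold, and the number of the 10 that passed, 5 as reported, was 2 with the replicate block (*S100A7* and *S100A14*), 0 at an adjusted p under 0.001, and 1 to 5 with a library left out. It was 1, *S100A7*, without wild-type replicate 1 or wild-type replicate 2. Of all genes 680 passed as reported, 419 with a mean of at least 50, 133 with the replicate block, 1 at 0.001, and 4 (without wild-type replicate 2) to 1431 (without edited replicate 2) with a library left out. The median difference of *S100A4* from the other S100 genes, 3.47, was 2.76 to 4.17 with a library left out. The replicate differences of the groups had a correlation of r = −0.138 over 9590 genes. With 1 difference per group, this cannot show whether libraries of the same number were handled together. A crossed pairing, chosen after seeing the data, called 1002 genes and 6 of the S100 genes. Other S100 genes that passed numbered 1 as reported, 2 with no filter, 0 with a mean of at least 50, with the replicate block, without a variance trend or at 0.001, and 0 to 1 with a library left out. Binding partners (1) gave 0 at 0.001 and 0 to 3 with a library left out. Receptors (0) gave 1 with a mean of at least 50, equal totals, quantile or cyclic loess normalization. Other EF-hand genes (1) gave 0 with no filter, with either block, at 0.001 and with any library left out. Epithelial markers (5) gave 3 with no filter or the replicate block, 0 at 0.001 and 0 to 6 with a library left out. Leukocyte markers (1) gave 0 with a mean of at least 50 or at 0.001 and 0 to 1 with a library left out. Fibroblast markers (2) gave 1 with a mean of at least 50 or quantile normalization, 0 with the replicate block or at 0.001, and 0 to 2 with a library left out. The cause of these differences was not tested. The median log2 fold change of all genes was 0.09 as deposited and −0.03 with equal totals.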
